A study of Mus musculus with 12 samples.

Results

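The regions described here are 2 kb bins of the mouse genome that carry an active enhancer mark in fetal liver haematopoietic stem cells (HSCs) and not in adult bone marrow HSCs, and that a captured promoter on the same chromosome was found to contact. A contact was included where the distal bin was marked as an active enhancer in fetal cells, was not so marked in adult cells, and carried no active or bivalent promoter mark in either population. This rule gave 3526 contacts of the 88475 listed within a chromosome (89545 in all), at 2644 distinct bins. Their promoters belonged to 1410 of the 3352 captured genes. They are called fetal-only enhancer bins below; the rule used chromatin marks, and neither the contact counts nor the expression values.

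The contacts were measured by promoter Capture-C, in which crosslinked chromatin is cut with the restriction enzyme DpnII, ligated, and enriched for fragments that hold chosen promoters. Fetal HSCs came from livers at embryonic day 14.5 and adult HSCs from the bone marrow of mice aged 6 to 8 weeks, both of strain B6129SF1 and both sorted as Lin-Sca1+cKit+CD135- cells. Each population had 4 libraries, 2 in each of 2 capture batches, and the batches captured largely different promoters, with 19 promoter fragments in both. The libraries of a population were combined within a batch in the table used here, so each contact has 1 fetal and 1 adult count, there is no spread between replicates, and no test between the populations can be made. How many animals were pooled for a library was not given in the sources used here. The 4 libraries of HPC7 cells, a haematopoietic progenitor line, wild type or lacking TCF3, were not analysed here.

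Enhancers are stretches of DNA that bind transcription factors and raise transcription of genes that can lie far away on the same chromosome. Active enhancers carry acetylated histones, primed enhancers are marked but lack that acetylation, and poised enhancers carry a repressive mark as well; accessible DNA is read by ATAC, a transposase assay. Fetal liver HSCs divide and expand, whereas most adult marrow HSCs are quiescent, and the populations use partly different enhancers. How the deposited marks were derived from such data was not given in the sources used here.

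The first batch held 2004 of these contacts at 1580 bins and the second held 1522 at 1338 bins. Of the 1939 promoter entries of the first batch, 859 (44.3%) contacted at least 1 fetal-only enhancer bin, as did 667 (36.8%) of the 1814 entries of the second. An entry is a captured promoter fragment, and genes with several start sites have several entries, told apart by a suffix. Among those 859 and 667 entries, 372 and 307 had a single such bin and 157 and 111 had 4 or more. In comparison, bins active only in adult cells gave 2789 contacts, bins active in both gave 7444, and bins active in neither gave 57551, by the same filter on promoter marks.

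The bins themselves are given on mm9 coordinates, the build named in the submitters' processing notes, for which no genome sequence was used here, so the sequences shown are those of target promoters. The 4 promoters below are examples and do not cover the range of behaviour at fetal-only enhancer bins. None of them stands for promoters with clearly more adult reads, which are described further below. Dsn1, a kinetochore protein, and Nup54, a nuclear pore protein, had contacts among the most fetal-biased of the first batch. Mcm2, a subunit of the replicative helicase, had 9 such contacts, all with the higher count in fetal cells. Fos, an immediate early transcription factor, was nearly silent in fetal cells and high in adult cells, with contacts at a similar count in both. Each sequence gives the 250 bases before the start site on the gene's own strand (RefSeq, GRCm38.p6), with motif matches in capitals.
Dsn1: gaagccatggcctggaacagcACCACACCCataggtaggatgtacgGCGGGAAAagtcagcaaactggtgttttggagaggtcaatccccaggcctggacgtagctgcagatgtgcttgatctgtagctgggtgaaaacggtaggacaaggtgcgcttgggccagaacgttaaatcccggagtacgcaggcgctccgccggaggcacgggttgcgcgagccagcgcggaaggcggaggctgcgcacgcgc
Nup54: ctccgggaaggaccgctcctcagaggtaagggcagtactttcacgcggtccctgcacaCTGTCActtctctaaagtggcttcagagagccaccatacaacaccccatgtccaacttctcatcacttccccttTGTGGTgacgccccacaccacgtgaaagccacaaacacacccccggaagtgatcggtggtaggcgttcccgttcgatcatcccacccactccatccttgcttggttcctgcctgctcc
Mcm2: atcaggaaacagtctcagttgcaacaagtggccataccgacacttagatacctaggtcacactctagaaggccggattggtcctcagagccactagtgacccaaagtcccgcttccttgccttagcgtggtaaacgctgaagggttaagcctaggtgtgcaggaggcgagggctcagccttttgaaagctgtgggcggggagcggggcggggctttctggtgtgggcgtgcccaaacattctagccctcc
Fos: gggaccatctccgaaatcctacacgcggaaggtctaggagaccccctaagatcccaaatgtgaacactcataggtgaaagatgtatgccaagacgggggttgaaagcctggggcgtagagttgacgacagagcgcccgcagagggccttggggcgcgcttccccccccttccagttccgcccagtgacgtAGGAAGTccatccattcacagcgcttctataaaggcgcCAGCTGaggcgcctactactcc

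The Dsn1 sequence (chr2:157007076-157007325, minus strand) matched the RUNX motif TGTGGT and the KLF motif CCACACCC, whose letters overlap there, and the E2F motif TTTCCCGC. The Nup54 sequence (chr5:92435200-92435449, minus strand) matched the MEIS motif TGACAG and the RUNX motif, and the Fos sequence (chr12:85473640-85473889, plus strand) matched the ETS motif AGGAAGT and the E-box CAGCTG. The Mcm2 sequence (chr6:88898781-88899030, minus strand) held no match to the 9 motifs searched on both strands, which also included the AP-1 motif TGANTCA, the GATA factor motif with letters GATAAG, and a CTCF motif. Of the 1410 target genes, 1021 had promoters in the RefSeq table, giving 1408 promoters. The RUNX motif was found in 11.1% of these, in 11.1% of promoters of captured genes without a fetal-only enhancer bin and in 14.0% of all 32851 promoters. The E2F motif was found in 2.06%, 1.82% and 0.895% of the same sets, and the ETS motif in 8.03%, 7.32% and 7.69%. Captured promoters with and without such a bin thus held these motifs at similar shares, and their median GC contents were 59.6% and 58.8%, against 52.4% over all promoters.

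Counts at fetal-only enhancer bins were slightly higher in fetal than in adult cells. Most of the contacts were called in adult cells, alone or beside fetal cells, and so were most contacts of all kinds. In the first batch the median contact had 10 reads in fetal and 9 in adult cells, and in the second 29 and 25. The median log2 ratio of counts, with 1 added to each, was 0.19 (quartiles -0.42 and 0.81) in the first batch and 0.31 (quartiles -0.10 and 0.73) in the second. The corresponding medians over all within-chromosome contacts were 0.14 and 0.23, and the counts were not scaled between populations. Bins active only in adult cells had medians of -0.10 and 0.08, and bins active in both had 0.00 and 0.14. Bins with no active enhancer mark in either population, some of them open, primed or poised, had 0.19 and 0.26. The fetal-only bins thus stood above the other enhancer classes but hardly above bins active in neither. Bins active in neither were spread more widely at both ends, where the first batch had quartiles at -0.58 and 0.89 and the second at -0.23 and 0.75.

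**Figure D1:**
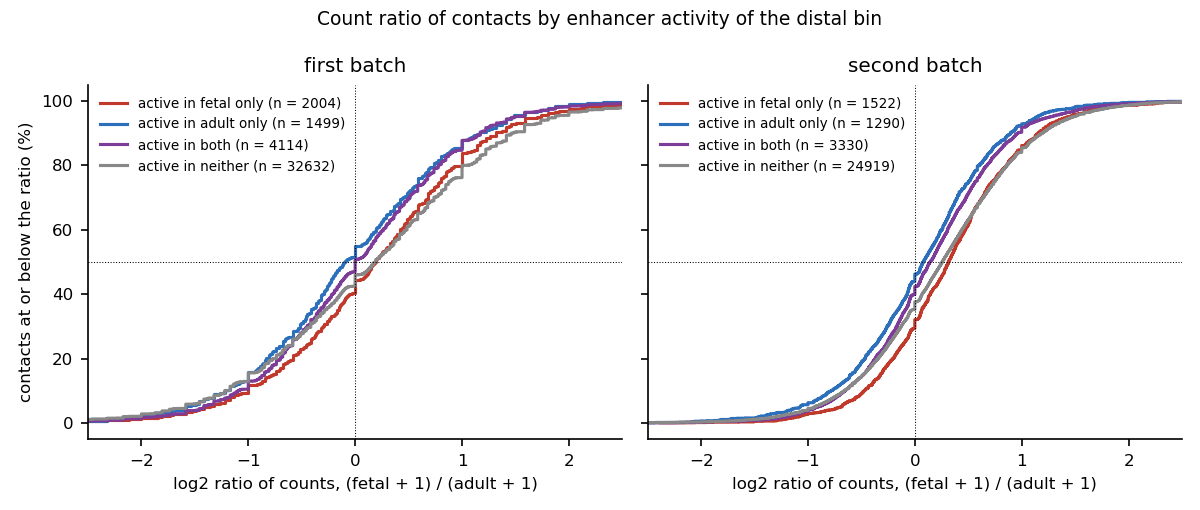
Cumulative share of contacts (vertical axis, percent) at or below a given log2 ratio of fetal to adult counts (horizontal axis, 1 added to each count), for 4 classes of distal bin in each batch. The red curve of fetal-only enhancer bins (2004 and 1522 contacts) lies to the right of the blue adult-only curve in both batches, with medians of 0.19 against -0.10 and 0.31 against 0.08.

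The fetal count was the higher one at 1116 contacts (55.7%, 95% exact interval 53.5 to 57.9) in the first batch, where the share over all contacts was 53.0%. In the second batch it was higher at 1034 (67.9%, interval 65.5 to 70.3), against 61.5% over all contacts. A difference of at least 2-fold in favour of fetal cells was seen at 406 contacts (20.3%) and 233 contacts (15.3%), close to the 20.9% and 14.0% of all contacts. A difference of at least 2-fold in favour of adult cells was seen at 233 (11.6%) and 45 (2.96%), below the 14.4% and 4.33% of all contacts. Against the other enhancer classes, 2-fold fetal-biased contacts were more frequent at fetal-only bins, with 14.6% and 7.75% at adult-only bins and 15.4% and 9.82% at bins active in both. At bins active in neither they made up 23.9% and 16.1%, and 2-fold adult-biased contacts 15.5% and 4.51%. These intervals and those below are exact and cover counting error only. Neighbouring bins and contacts of 1 promoter are not independent, and whether PCR duplicates were removed was not given in the sources used here.

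Each contact also carries the authors' score in each population, with values above 0 starting at 1.3 in the first batch and 2.0 in the second. A contact is taken as called in a population where its score is above 0. Of the first batch's contacts, 788 (39.3%) were called in fetal cells only, against 39.0% of all contacts, 640 (31.9%) in adult cells only, against 35.7%, and 576 (28.7%) in both, against 25.3%. Of the second batch's, 537 (35.3%) were called in fetal cells only, against 34.0%, 365 (24.0%) in adult cells only, against 29.3%, and 620 (40.7%) in both, against 36.7%. Between 24.0% and 31.9% of contacts with an enhancer active only in fetal cells were thus called in adult cells alone. Of the contacts called in a single population, fetal cells held 55.2% (interval 52.6 to 57.8) and 59.5% (interval 56.2 to 62.8). The same share was 42.7% and 40.1% at adult-only bins, 45.9% and 46.4% at bins active in both, and 54.1% and 55.4% at bins active in neither.

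The fetal share of these calls differed with distance from the promoter and was highest between 150 and 500 kb in both batches. The median distance from promoter to bin was 164 kb in the first batch and 90.2 kb in the second. Between 20 and 60 kb, 25.5% and 16.1% of the calls made in a single population were fetal. Between 60 and 150 kb the shares were 47.1% and 71.2%, and between 150 and 500 kb they were 64.0% and 78.9%. Beyond 500 kb they were lower again, at 56.9% (interval 44.7 to 68.6) and 66.7% (8 of 12 calls), and under 20 kb they rested on 10 and 3 calls, 4 and 2 of them fetal. All within-chromosome contacts followed a like course from 20 kb on, with 30.5% and 15.6%, then 43.6% and 64.3%, then 59.1% and 70.4%, and 54.7% and 61.8% beyond 500 kb. At 150 to 500 kb the interval at fetal-only enhancer bins lay above the share of all contacts in both batches (60.5 to 67.4 and 73.2 to 83.8), and at 20 to 60 kb it held that share (17.5 to 34.9 and 11.5 to 21.5). Over all distances beyond 60 kb, fetal cells held 57.7% and 73.9% of single-population calls at fetal-only bins, 55.3% and 68.0% at bins active in neither, and 44.7% and 54.7% at adult-only bins.

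**Figure D2:**
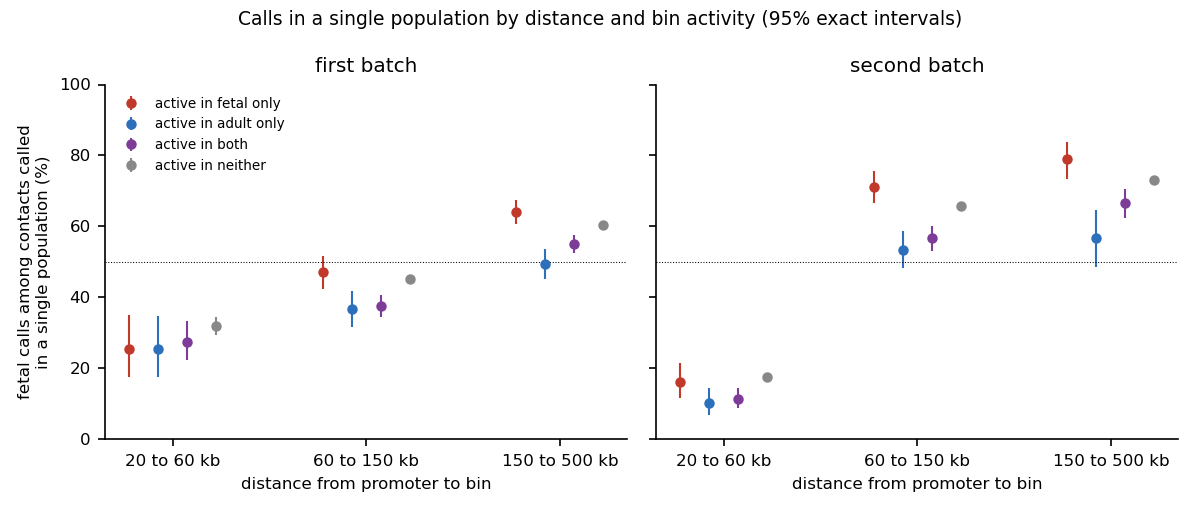
Share of contacts called in fetal cells among those called in a single population (vertical axis, percent) by distance from promoter to bin, for 4 classes of bin in each batch; bars are exact 95% intervals. At 150 to 500 kb the fetal-only bins are at 64.0% and 78.9%, above the adult-only bins at 49.4% and 56.7%, whereas at 20 to 60 kb all classes are below 50%.

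Comparing bins of the same promoter removes differences between promoters. In the first batch 478 promoter entries contacted both fetal-only and adult-only enhancer bins, and the median log2 ratio was higher over the fetal-only bins at 280 and lower at 192, with a median difference of 0.16. The second batch had 342 such entries, 205 higher and 136 lower, with a median difference of 0.18. The fetal-only bins were thus the more fetal-biased ones at 59.3% (interval 54.7 to 63.8) and 60.1% (interval 54.7 to 65.4) of the unequal pairs. Against bins of the same promoter active in neither population the shares were 51.9% and 53.1%, and both intervals held 50% (48.5 to 55.3 and 49.2 to 57.0). Over the same promoters, the count ratio was therefore more often the higher one at fetal-only than at adult-only enhancers. No such difference from bins active in neither was resolved at this depth.

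In adult cells most fetal-only enhancer bins remained accessible without any enhancer mark. By contact, 1286 (64.2%) in the first batch and 986 (64.8%) in the second were open by ATAC in adult cells and neither primed nor poised. Closed bins without a mark made up 581 (29.0%) and 455 (29.9%). Primed bins made up 130 (6.49%, interval 5.45 to 7.66) and 79 (5.19%, interval 4.13 to 6.43), and poised bins 7 (0.349%) and 2 (0.131%). Altogether 69.3% and 68.8% of the contacts were with bins open in adult cells, and 80.7% and 80.0% with bins open in fetal cells. Adult accessibility was 31.0% and 33.1% at bins active in neither population and 86.8% and 87.6% at bins active in both, so fetal-only enhancers lay between these classes. The primed mark in adult cells was found at 1.54% and 1.52% of contacts with bins active in neither. In the mirror comparison, adult-only enhancer bins were open in fetal cells at 65.6% and 67.1% of contacts. They were primed there at 9.27% (interval 7.85 to 10.9) and 9.07% (interval 7.56 to 10.8), above the share of fetal-only bins primed in adult cells, with intervals that did not overlap. The primed mark was also the more frequent one in fetal cells at bins active in neither, at 2.13% and 2.52% of contacts. The higher share at adult-only bins is thus not particular to that class.

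The adult state of a bin went with small differences in contact. Closed bins of the second batch had a median log2 ratio of 0.43 and open unmarked ones 0.28, and 63.8% (interval 58.1 to 69.1) and 58.4% (interval 54.2 to 62.6) of their single-population calls were fetal, with overlapping intervals. Both classes had a median of 0.19 in the first batch, with fetal shares of 54.5% and 55.9%. Primed bins had medians of 0.06 and 0.28 and fetal shares of 51.0% (interval 40.7 to 61.3) and 45.7% (interval 30.9 to 61.0), the lowest of these 3 states in each batch, with intervals that overlapped those of the other states. Open bins of the second batch were called in both populations more often, at 44.6% (interval 41.5 to 47.8), than closed bins, at 32.1% (interval 27.8 to 36.6). In the first batch these shares were 29.8% and 27.7%, with overlapping intervals.

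**Figure D3:**
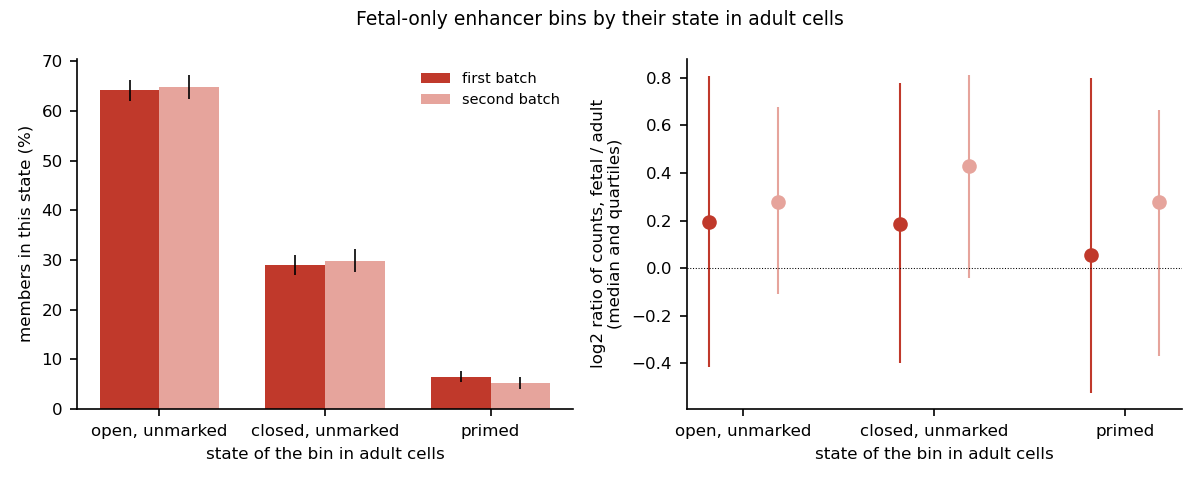
Left, share of contacts at fetal-only enhancer bins (percent, exact 95% intervals) whose bin is open and unmarked, closed and unmarked, or primed in adult cells, per batch. Right, median and quartiles of the log2 count ratio in the same states; open unmarked bins are 64.2% and 64.8% of contacts, and the quartile ranges of all 3 states overlap.

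The largest fetal-biased contacts joined promoters of genes with varied expression; values given as a pair from here on are the fetal one first and the adult one second. Among contacts with a sum of at least 20 reads in the first batch, the Dsn1 promoter and a bin at chr2:156706001-156708001 had 37 fetal and 7 adult reads, a ratio of 5.29 (interval 2.33 to 14.1). This bin was open in adult and closed in fetal cells by ATAC, and Dsn1 was at 4.83 against 3.38 FPKM (fragments per kilobase of transcript, scaled to the reads of the library). Ino80e, a subunit of a chromatin remodeller, had 18 and 3 reads with a bin 255 kb away that was closed in adult cells. Nup54 had 27 and 5 reads with chr5:92938001-92940001, and its 3 fetal-only enhancer bins together had 68 and 23, a ratio of 2.96 (interval 1.82 to 4.97). Nup54 was expressed at 9.29 against 5.57 FPKM. Ptplad2 had 17 and 3 reads at a bin 111 kb away.

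The bin at chr15:103130001-103132001, closed in both populations, was fetal-biased for a pair of promoters. Hnrnpa1, an RNA-binding protein, had 27 fetal and 6 adult reads there, and Nfe2_2, a start site of the erythroid and megakaryocytic factor Nfe2, had 32 and 8. Expression was not fetal-biased: Hnrnpa1 was at 174.9 against 173.7 FPKM, and Nfe2_2 was lower in fetal cells at 48.5 FPKM against 86.3 FPKM. Both contacts were called in fetal cells only.

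Among second-batch contacts with a sum of at least 40 reads, Zbtb38 had 35 fetal and 6 adult reads, a ratio of 5.83 (interval 2.43 to 17.0). Dusp22, a phosphatase, had 55 and 11 reads, and Slc29a1, a nucleoside transporter, had 42 and 9. These 3 bins were closed in adult cells, and only the Slc29a1 bin was open in fetal cells. Slc7a1, a transporter of cationic amino acids, had 33 and 7 reads, and Cnn3, the actin-binding protein calponin 3, had 33 and 8, both at bins open in adult cells. Of these 5 genes, 4 had the higher FPKM in fetal cells, most of all Cnn3 at 17.3 against 0.393 FPKM. Zbtb38 was lower in fetal cells at 1.96 against 5.06 FPKM.

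Some fetal-only enhancers were in stronger contact in adult cells. Among first-batch contacts Fen1, a flap endonuclease of DNA replication, had 4 fetal and 17 adult reads with chr19:10060001-10062001, a ratio of 0.235 (interval 0.0576 to 0.721), whereas its expression was higher in fetal cells at 41.9 against 18.4 FPKM. Flywch2 had 16 and 49 reads at a bin 22.3 kb away, and 5033414D02Rik_2 and Ppt2_2 had 4 and 17 and 4 and 16 reads. Among second-batch contacts H2-Ob, an MHC class II chain, had 10 and 30 reads, and its expression was lower in fetal cells at 0.302 against 2.04 FPKM. Ftsj2, Smagp and Umps had 12 and 34, 12 and 31, and 14 and 34 reads, and all 3 genes had the higher FPKM in fetal cells. All 8 of these contacts were called in adult cells only, and expression took the same side as the contact at 4 of the 8 genes.

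**Figure D4:**
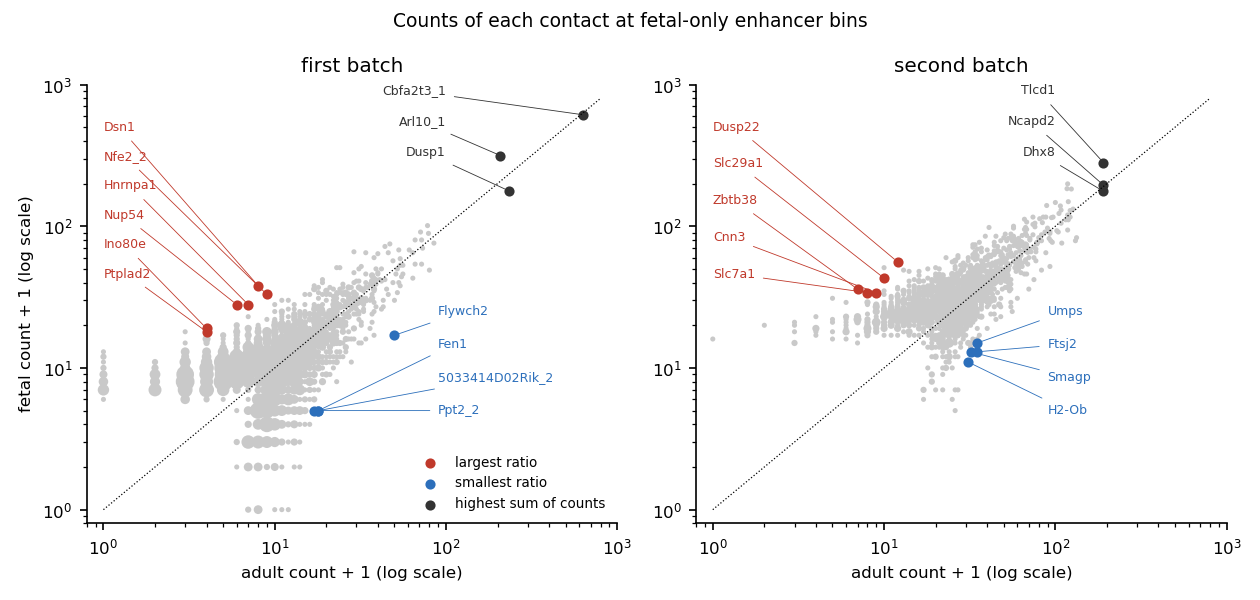
Fetal against adult count of each contact at fetal-only enhancer bins (1 added to each, logarithmic axes, grey points larger where contacts coincide), per batch, with named contacts of largest and smallest ratio among those over the minimum sum of 20 or 40 reads and the 3 of highest sum in colour. Most points lie near the dotted line of equal counts, and the named contacts reach 55 against 11 reads (Dusp22) above it and 16 against 49 reads (Flywch2) below it.

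The contacts with most reads went either way. The intervals of the count ratio held 1 at 3 of the 6. Cbfa2t3_1, a start site of a transcriptional corepressor of HSCs, had 610 fetal and 633 adult reads at a bin 2.13 kb away, where the scores were 1.40 and 1.49. Dusp1, a phosphatase of the early response, had 177 and 231 reads, a ratio of 0.766 (interval 0.626 to 0.936), and its expression was far lower in fetal cells at 2.43 against 43.1 FPKM. Arl10_1 had 314 and 207 reads 4.47 kb away, a ratio of 1.52 (interval 1.27 to 1.82), yet its scores were 0 and 1.78, a call in adult cells only. Of the second batch, Tlcd1 had 280 and 190 reads, a ratio of 1.47 (interval 1.22 to 1.78), and Ncapd2, a condensin subunit, had 194 and 190. Dhx8, an RNA helicase of splicing, had 176 and 189 reads at 73.4 kb with scores of 71.8 and 89.9, the clearest distal contact among these 6 by the authors' score.

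Most of these bins contacted a single captured promoter entry, and a few contacted many. The share of such bins in other classes was not counted, and promoters that were not captured could not be seen. Contacts per bin were similar over all bins. The first batch had 2004 contacts at 1580 fetal-only bins and 49290 contacts at 40881 bins of all kinds. The second had 1522 at 1338 and 39185 at 33952. Of the 2644 bins, 2020 contacted 1 captured promoter entry, 445 contacted 2, and the most was 10. The bin at chr6:51122001-51124001, open in both populations, contacted 10 entries of 6 genes: Skap2, Cbx3 and the homeobox genes Hoxa3, Hoxa7, Hoxa9 and Hoxa10. Its distances ranged from 297 kb for Cbx3 to 1068 kb for Hoxa10_1. Its contacts summed to 168 fetal reads against 176 adult reads, a ratio of 0.955 (interval 0.768 to 1.19), and 9 of the 10 contacts were called in both populations. Hoxa9, a regulator of HSC self-renewal, had 32 and 22 reads with scores of 14.4 and 6.56, whereas Hoxa10 had 16 and 37 reads with scores of 4.30 and 21.7. The next bin, chr6:51124001-51126001, carried the same fetal-only mark and was open by ATAC in adult cells only. It contacted 6 of these entries with 76 fetal and 120 adult reads, a ratio of 0.633 (interval 0.469 to 0.851), with 5 of the 6 contacts higher in adult cells. These Hoxa promoters lie side by side and share the bin, so their counts are not independent observations.

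The bin at chr11:106020001-106022001 contacted 9 entries, among them 3 start sites of Smarcd2, a subunit of the SWI/SNF remodeller, with 403 and 377 reads. At chr2:25122001-25124001, open in fetal and closed in adult cells, 4 promoters had 186 and 89 reads, a ratio of 2.09 (interval 1.61 to 2.72), and all 4 counts were higher in fetal cells. These were Tubb2c with 84 and 38 reads, Abca2 with 44 and 15, Zmynd19 with 31 and 10, and 2010317E24Rik with 27 and 26. Tubb2c, a beta tubulin, Zmynd19 and 2010317E24Rik had the higher FPKM in fetal cells, and Abca2, a lipid transporter, had the lower one at 4.98 against 10.7 FPKM. The bin at chr15:98860001-98862001 contacted Tuba1a, Tuba1b, Spats2 and Prkag1 with 129 and 109 reads, and the bin at chr11:77978001-77980001 contacted 5 promoters including Tlcd1 with 430 and 327.

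Some neighbouring bins carried the mark together. Joining bins less than 5 kb apart gave 1859 runs, 1252 of a single bin and 116 of 3 or more. Only contacted bins were joined, and runs in other classes of bin were not counted. The longest run, at chr19:53506001-53532001, held 9 bins, all in contact with Dusp5, a nuclear phosphatase of ERK kinases, with 265 and 204 reads. A run of 8 bins at chr11:74638001-74664001 gave 21 contacts with Srr, Mettl16 and 1300001I01Rik and had 773 and 577 reads, a ratio of 1.34 (interval 1.20 to 1.49). The nearest promoter captured in either batch was the contacted one at 28.6% of contacts in the first batch (27.8% of all contacts) and at 49.3% in the second (42.0%). A nearer promoter captured only in the other batch thus counted against the contacted one.

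Several promoters gathered many fetal-only enhancers. Lyrm5 had 13, with 549 fetal and 353 adult reads, a ratio of 1.56 (interval 1.36 to 1.78), and 12 of the 13 were higher in fetal cells. Its expression was lower in fetal cells at 2.58 against 4.51 FPKM. Dusp5 had 12, with 400 and 297 reads, and 2410003K15Rik had 11, with 426 and 297 reads and all 11 higher in fetal cells. Chd7, a chromatin remodeller, had 12 in the first batch with 120 and 75 reads, a ratio of 1.60 (interval 1.19 to 2.16), and 11 of its 12 bins were open in adult cells. Cbx7, a Polycomb subunit, had 9 and 10 at its start sites, with 151 and 128 and with 158 and 124 reads, whereas its expression was lower in fetal cells at 3.09 against 8.13 FPKM and 3.56 against 9.08 FPKM.

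Target genes of fetal-only enhancers had the higher expression in fetal cells more often than genes without such a contact, and a difference in that direction was also seen for bins active in both populations. In the first batch 449 of the 859 entries with such a contact (52.3%, interval 48.9 to 55.7) had the higher FPKM in fetal cells, against 47.9% of all entries and 44.4% (interval 41.5 to 47.5) of entries without one. In the second batch the counts were 343 of 667 (51.4%, interval 47.6 to 55.3), against 45.9% of all entries and 42.6% (interval 39.7 to 45.6) of entries without one. For bins active in both populations the shares were 50% (interval 47.0 to 53.0) with and 45.0% (interval 41.5 to 48.5) without such a contact in the first batch, and 49.7% (interval 46.5 to 53.0) and 41.8% (interval 38.5 to 45.1) in the second. For adult-only bins they were 49.5% and 46.9%, then 47.0% and 45.3%, with overlapping intervals. By number of fetal-only contacts, entries with 1, 2, 3 and 4 or more had first-batch shares of 50%, 51.3%, 53.3% and 58.0%, and second-batch shares of 46.6%, 55.6%, 52.8% and 57.7%. The intervals for 1 and for 4 or more overlapped in both batches (44.8 to 55.2 and 49.8 to 65.8, then 40.9 to 52.3 and 47.9 to 67.0), so no trend with number was resolved. By number of adult-only contacts the share was 58.2% (interval 47.4 to 68.5) at 3 and 50% (interval 39.1 to 60.9) at 4 or more in the first batch, whereas the second gave 37.3% and 40.7%. Where fetal-only contacts outnumbered adult-only ones the share was 52.8% (interval 48.6 to 56.9) and 52.6% (interval 47.9 to 57.3). Where adult-only ones were more numerous it was 44.3% (interval 39.4 to 49.4) and 41.6% (interval 36.6 to 46.7), so the intervals overlapped in the first batch only. Entries with equal numbers above 0 had 58.1% (interval 49.9 to 65.9) and 52.8% (interval 42.9 to 62.6), so the share did not follow the balance of contacts in steps.

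**Figure D5:**
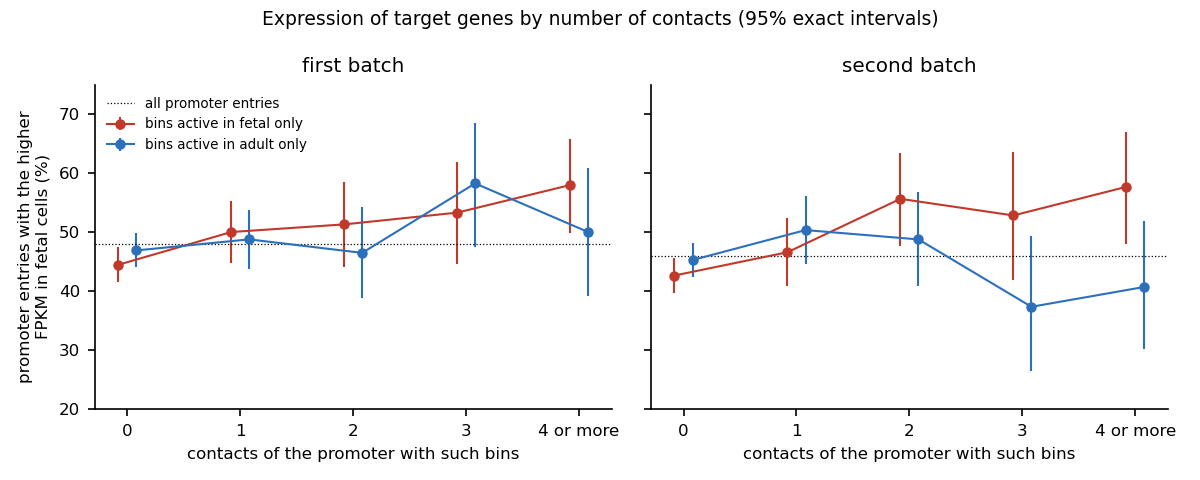
Share of promoter entries with the higher FPKM in fetal cells (vertical axis in percent, not starting at 0) by the number of contacts with fetal-only (red) or adult-only (blue) enhancer bins, with exact 95% intervals; the dotted line is the share over all entries of the batch. The red points run from 44.4% to 58.0% in the first batch and from 42.6% to 57.7% in the second, and intervals of neighbouring points from 1 contact on overlap.

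Entries with a fetal-only enhancer also had more contacts of all kinds, with medians of 33 against 10 and of 30 against 9 by batch. Among entries above the batch's median number of contacts, those with a fetal-only enhancer had the higher fetal FPKM at 53.2% and 53.7%, and those without at 47.1% and 48.0%. Among the remaining entries the shares were 49.6% against 43.4% and 42.8% against 40.1%. The direction was thus the same in all 4 comparisons, with smaller differences and overlapping intervals.

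The shift in expression was small in size. On the scale of FPKM with 1 added, 49 of the 859 entries (5.70%) were at least 2-fold higher in fetal cells, against 5.11% of all entries, and 100 (11.6%) were at least 2-fold higher in adult cells, against 13.4%. In the second batch the counts were 74 (11.1%, against 11.3%) and 96 (14.4%, against 16.2%). The authors marked all 1814 entries of the second batch as differentially expressed and 691 of the 1939 of the first. Of the marked entries of the first batch, 51.7% (interval 45.8 to 57.5) of the 296 with a fetal-only enhancer and 38.7% (interval 33.9 to 43.7) of the 395 without one were higher in fetal cells.

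Contact counts at fetal-only enhancers did not go the same way with the expression of the target in the batches. In the first batch the median log2 ratio of counts was 0.09 where the target was at least 2-fold higher in fetal cells and 0.15 where it was at least 2-fold higher in adult cells. In the second batch these were 0.36 and 0.22. At bins active in both populations the first batch gave 0.24 and -0.11 for the same target classes, and the second gave 0.31 and 0.08. At fetal-only bins of the first batch the fetal share of single-population calls was 50.9% (interval 41.1 to 60.7) and 56.4% (interval 48.2 to 64.3) for these target classes, and the second batch gave 53.3% and 55.4%, with overlapping intervals. At bins active in both it was 57.5% (interval 49.6 to 65.1) and 40.6% (interval 35.7 to 45.7), then 58.5% and 38.9%, without overlap. The difference between these classes of bin was not tested.

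The fixed list of the fetal HSC programme included RNA-binding proteins, transcription factors, a growth factor, a non-coding RNA and globins. All 12 genes were captured at 16 entries, and all 16 had the higher FPKM in fetal cells. Of these, 8 contacted a fetal-only enhancer, with 30 contacts, of which 16 had the higher fetal count, 13 the higher adult count and 1 was equal. The first batch held 28 of the 30, of which 14 (50%) were higher in fetal cells, against 55.7% of all contacts at fetal-only bins and 53.0% of all contacts in that batch. Igf2bp1, an RNA-binding protein that stabilises messenger RNAs, was at 6.43 against 0.0172 FPKM. It had 30 and 14 reads and 25 and 12 reads with adjoining bins 174 and 176 kb away (chr11:95690001-95694001), both called in fetal cells only and both closed in adult cells, a summed ratio of 2.12 (interval 1.30 to 3.51). Hmga2, an architectural factor of fetal self-renewal, was at 28.2 against 1.75 FPKM with 1 such contact of 6 and 4 reads. Lin28b, the repressor of let-7 microRNAs, Igf2bp2, Igf2bp3, Arid3a, Sox17 and the globin genes Hbb-y and Hbb-bh1 had none. Sox17, at 0.0202 against 0 FPKM, and Hbb-bh1, at 0.102 against 0 FPKM, were barely detected, so their direction carries little weight.

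The imprinted pair Igf2, a growth factor, and H19, a non-coding RNA, differed between entries. Igf2_2 was at 20.6 against 0.536 FPKM, yet 7 of its 8 fetal-only enhancer contacts were called in adult cells only, with 97 and 108 reads in sum, a ratio of 0.898 (interval 0.676 to 1.19). At H19_1, at 208.7 against 2.15 FPKM, all 3 contacts were called in fetal cells only, with 35 and 17 reads, a ratio of 2.06 (interval 1.12 to 3.92). At the neighbouring entry H19 the 3 contacts had 34 and 25 reads and 2 of them were called in adult cells only. The bin at chr7:149640001-149642001 contacted both H19, with 10 and 11 reads, and Igf2_1, with 8 and 2.

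Mycn, a MYC family factor, had fetal-only enhancer contacts at both of its entries, 7 and 5, at 256 to 522 kb. The strongest, at chr12:12426001-12428001, had 41 and 40 reads with scores of 40.04 and 33.64 from one entry and 23 and 24 reads with scores of 14.4 and 14.1 from the other. The bin at chr12:12582001-12584001, closed in adult cells, had 7 and 5 reads from one entry and 12 and 2 from the other. Mycn expression was 35.2 against 28.0 FPKM. The bin with most reads thus had counts in adult cells, where it was not marked active, that did not differ beyond counting error from those in fetal cells (ratio 1.02, interval 0.646 to 1.63 from the first entry).

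The HSC regulators, transcription factors and receptors of stem cell identity, had 18 of 22 genes captured at 27 entries, of which 2 had the higher FPKM in fetal cells. They had 27 contacts with fetal-only enhancers at 14 entries and 48 with adult-only enhancers at 19. Of the 27, the fetal count was higher at 11, lower at 14 and equal at 2. All 27 were in the first batch, where the fetal count was higher at 55.7% of contacts at fetal-only bins, against 40.7% here. Of the 27, 15 were called in both populations, against 28.7% of contacts at fetal-only bins and 25.3% of all contacts in that batch. Start sites of Meis1, of Gfi1 and of Hoxa9 shared bins, so the 27 contacts are not independent. Meis1_1, a homeobox partner of Hox proteins, had 53 and 65 reads with chr11:18774001-18776001, scores 41.5 and 61.9, at a bin closed in adult cells, and was at 15.7 against 35.3 FPKM. Runx1, needed for HSC emergence, had 4 such contacts of 48 and 62 reads in sum, none with the higher fetal count. Gata2, a factor of HSC maintenance, had 3 with 51 and 56 reads, beside 9 with adult-only enhancers. The start sites of Gfi1, a repressor that restrains HSC division, were the 2 entries with the higher fetal FPKM, 11.0 against 1.54 FPKM and 10.1 against 1.38 FPKM. Their fetal-only enhancer contacts had 35 and 37 reads and 32 and 25 reads, and the intervals of both ratios held 1.

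Quiescence and early response genes had 9 of 12 members captured, with 18 contacts at fetal-only enhancers. All 18 were in the first batch, and 12 of them (66.7%) had the higher fetal count. The share in that batch was 55.7% at all fetal-only bins and 53.0% over all contacts. Fos was at 0.0899 against 62.3 FPKM, and its 4 fetal-only enhancer contacts had 22 and 17, 15 and 17, 18 and 14, and 11 and 22 reads at bins all open in adult cells, 66 and 70 in sum. Jun, its partner in the AP-1 dimer, was at 2.18 against 108.8 FPKM, and 3 of its 4 contacts were called in fetal cells only, with 43 and 32 reads in sum. Cdkn1a, the p21 inhibitor of cyclin-dependent kinases, had 6 contacts at 3 entries, all at bins closed in both populations. It was at 1.71 against 1.14 FPKM at 1 of these entries. These entries shared bins, so their 6 contacts are not independent. The near absence of Fos messenger RNA in fetal cells thus came with contacts to fetal-active enhancers at counts that did not differ beyond counting error (ratio 0.943, interval 0.663 to 1.34).

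Cell cycle and replication genes had 6 of 17 members captured. Of their 20 contacts with fetal-only enhancers, 18 had the higher fetal count, 1 the lower and 1 was equal, 10 were called in fetal cells only, and none was called in adult cells only. By batch, the fetal count was higher at 9 of 11 and 9 of 9, against 55.7% and 67.9% of all contacts at fetal-only bins and 53.0% and 61.5% of all contacts. Calls in fetal cells only numbered 6 of 11 and 4 of 9, against 39.3% and 35.3% at all fetal-only bins and 39.0% and 34.0% of all contacts. Mcm2 gave 9 of the 20, and these were all of the second-batch contacts, so the second-batch shares are those of 1 promoter and not of several genes. The bins of Mcm2 lay 64.1 to 378 kb away, and the counts ran from 25 to 56 in fetal and from 14 to 36 in adult cells. The sums were 327 and 212, a ratio of 1.54 (interval 1.29 to 1.84). The highest single ratio was 2.37 (interval 1.36 to 4.29), at chr6:88778001-88780001 with 45 and 19 reads. Mcm2 expression was 53.4 against 31.3 FPKM, and it had no contact with an adult-only enhancer. Ccnd1, a cyclin of G1 phase, gave 6 of the 11 first-batch contacts, with 94 and 56 reads, a ratio of 1.68 (interval 1.19 to 2.38). Of these, 4 were called in fetal cells only, and Ccnd1 was at 10.9 against 6.09 FPKM. Ccnd2 had 2 contacts with 28 and 25 reads and was lower in fetal cells at 19.7 against 34.7 FPKM. Myc and Myc_1 had 3 contacts, 1 of them 1686 kb away with 11 and 11 reads.

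Growth and metabolism genes had all 6 members captured and 6 contacts, 5 with the higher fetal count, all 5 in the second batch, where 67.9% of contacts at fetal-only bins were so. Slc2a1, the glucose transporter GLUT1, had 26 and 8 and 24 and 18 reads with adjoining bins closed in adult cells, a summed ratio of 1.92 (interval 1.17 to 3.22), and was at 12.6 against 5.93 FPKM. Hk2, a hexokinase, had 56 and 37 reads in sum and Odc1, an enzyme of polyamine synthesis, had 16 and 11 at a bin primed in adult cells. Interferon and MHC genes had 10 of 11 members captured and 8 contacts, 4 higher and 4 lower in fetal cells, with 2 of 4 higher in each batch. B2m, the light chain of MHC class I, had 13 and 31 reads at chr2:122202001-122204001 and was at 81.1 against 418.2 FPKM. Irf8, a myeloid interferon regulatory factor, went the other way with 61 and 37 reads, a ratio of 1.65 (interval 1.08 to 2.55), at 7.48 against 0.925 FPKM.

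Markers of other cell types differed between the populations. Of the HSC and progenitor markers, 7 of 9 were captured at 10 entries, 2 of them (Procr and Cd34) higher in fetal cells, with a sum over genes of 166.9 against 251.3 FPKM. Kit was at 32.8 against 50.5 FPKM and Procr at 10.4 against 8.94 FPKM. Erythroid markers were captured for 7 of 9 genes, all 8 entries were higher in fetal cells, and their sum over genes was 94.5 against 25.7 FPKM, with no contact to a fetal-only enhancer. Macrophage markers were captured for 6 of 9 genes, all higher in fetal cells, with sums of 29.7 against 1.20 FPKM and 4 contacts to fetal-only enhancers. Neutrophil and mast cell markers (3 of 5) summed to 108.5 against 30.0 FPKM and megakaryocyte markers (3 of 4) to 23.3 against 168.0 FPKM. None of the lymphoid or hepatocyte markers was among the captured genes. In bulk samples fewer cells of a type and less RNA per cell cannot be told apart, and the part of such cells in the enhancer marks, contacts or expression values was not tested.

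The 2 batches rarely measured the same contact. A total of 274 bins were contacted as fetal-only enhancers in both batches, nearly all from different promoters. Their log2 ratios in the batches had a Spearman correlation of -0.0057 and a Pearson correlation of 0.042 across bins, and 125 (45.6%) lay on the same side of their batch's median. Of the 19 promoter fragments captured in both batches, often under different gene names, 9 had 36 contacts with fetal-only enhancers. Of their bins, 7 were listed from the same fragment in both batches, 5 with the higher count in the same population and 2 with it reversed. The contact at chr1:55294001-55296001 had 17 fetal and 11 adult reads from the fragment named Hspd1_1 in the first batch and 56 and 25 from the same fragment, named Hspe1, in the second. At chr13:109122001-109124001 the fragment named Ndufaf2 and then Ercc8 had 15 and 13 reads and then 43 and 48. The other reversal was at chr11:75848001-75850001, where the fragment named Glod4 and then Rnmtl1 had 7 and 10 reads and then 24 and 11.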

How the data were processed

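The deposited table holds, per the labels and its header, read counts of each promoter contact pooled by the authors per population and batch, the authors' score for each contact (in range and minimum a −log10 p-value), FPKM of the target gene, and 0 or 1 marks of chromatin state. The caller's filters and the counting of duplicates are not given in the sources used here; the submitters' processing notes name mm9, Trim Galore 0.41 and Bowtie2 2.2.2. Ratios were taken as log2 of counts with 1 added, and of FPKM with 1 added, unscaled; intervals are 95% Clopper-Pearson or the matching exact interval of a count ratio. The listed reads sum to 892529 (fetal) and 759999 (adult) for batch 1 and to 2014162 and 1813689 for batch 2; these are not library depths, which are unknown. The members and lists were chosen with earlier results of these data known.

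Named contacts were, per batch, the 6 largest and 4 smallest ratios above a sum of 20 or 40 reads, the 3 highest sums, the 3 bins with most promoters, the 4 promoters with most members, and genes of the fixed lists; the contacts of 2 genes that this rule picks are not reported here. Promoters with motif examples were chosen after their values were seen. Distances run between fragment middles. Alternatives were another pseudocount, a minimum sum, distance, merging of bins, stricter scores and centring. Motifs in the bins were not searched, as no mm9 genome was used here. The scripts (Python 3.11.15, pandas 2.3.3, NumPy 2.4.6, SciPy 1.17.1, matplotlib 3.10.9) were tested on simulated data.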

Additional observations from a re-analysis of the deposited data

Results flagged for a closer look

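The table also lists 14 contacts of fetal-only enhancer bins with promoters on another chromosome, outside the comparisons above. Their counts ran from 9 to 281 in fetal cells (median 18) and from 5 to 428 in adult cells (median 21.5). Of the 14, 8 were called in both populations, 4 in fetal cells only and 2 in adult cells only. The highest was the promoter of AU019823 on chromosome 9 with a bin at chr17:84054001-84056001, with 281 fetal and 428 adult reads, and the next bin, chr17:84052001-84054001, had 9 and 6. Pisd-ps2 on chromosome 17 and Sfi1_1 on chromosome 11 contacted the same bin, chr19:61340001-61342001, with 13 and 13 and with 14 and 9 reads. No control samples were available for such contacts, and their origin was not tested.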

How the results depend on the processing

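Of 77 alternatives tried on 23 results, 62 left the value within the exact interval of its share or median (for a difference of medians, an interval as wide as that of the median at fetal-only bins; for the count of runs, a small multiple of it), 15 moved it further and 0 reversed it. Part of this tally was fixed in advance. The shares by adult state, the 2-fold expression shares and the count of runs could not be reversed. Centring on the batch median cannot change a difference of medians, so those alternatives were bound to leave it the same. The tally is therefore no measure of robustness. With the minimum sum of counts, the median log2 ratio at fetal-only enhancer bins was 0.10 and 0.25 in the batches, and its excess over adult-only bins, 0.29 and 0.23 without the minimum, was 0.16 and 0.17. Centred on the batch median, the ratio was 0.048 and 0.088. A pseudocount of 5 gave an excess of 0.23 in the first batch. Beyond 60 kb in the second batch the ratio was 0.38 and the fetal share of single-population calls 73.9%. The comparison with bins of the same promoter active in neither population, added after the data were seen, gave 51.9% and 53.1% in place of 59.3% and 60.1%. With a pseudocount of 0.1 FPKM, the shares of targets at least 2-fold higher in fetal cells were 11.3% and 17.5%, and in adult cells 15.3% and 31.9%. No paired analysis was possible because the counts were pooled over libraries, and no library could be left out for the same reason. Low counts limit single contacts: the Smarcd2_2 contact with 19 fetal and 9 adult reads, a ratio of 2.11, had an interval from 0.910 to 5.30.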
